A study of Mus musculus with 92 samples.

Results

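STAG3-alone gene-end sites are places in mouse germline stem cells (GSC, self-renewing spermatogonial cells in culture) where the cohesin subunit STAG3 was called without STAG1, STAG2 or the insulator protein CTCF, close to an end of a protein-coding gene. They were chosen by their peak calls in GSC. A GSC site of a protein was a merged interval called in at least 2 of its lists of peaks. Of 27734 GSC STAG3 sites, 7359 (26.5%) overlapped no STAG1 or STAG2 site and no CTCF peak of any genotype and lay within 2500 bp of a gene end. Their GSC values are therefore given as a description and without a test.

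Cohesin is a ring-shaped complex that holds sister chromatids together and folds chromatin into loops. Each ring carries a single STAG subunit. STAG1 and STAG2 are the forms of somatic cells, while STAG3 was long studied on meiotic chromosomes. Cohesin often stops at CTCF bound to DNA, and it is also found at active gene starts.

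The assay was chromatin immunoprecipitation with sequencing (ChIP-seq), deposited as peaks, meaning stretches of the genome with an excess of reads. Wild-type GSC gave 3 STAG3, 3 STAG2 and 2 STAG1 lists. They came from a line carrying Acrosin-EGFP and beta-Actin-EGFP (AAG) and were sorted for that signal. CTCF lists came from 4 mutant genotypes of GSC, which were Stag3 KO, Stag2Stag3dKO (Stag1-only), Stag1Stag3dKO (Stag2-only) and Stag1Stag2dKO (Stag3-only), with 1 pooled list each, so that CTCF was not read in the wild-type cells that gave the STAG lists. The other cell types were wild type and came from another line, BVSC, with the reporters Blimp1-mVenus and Stella-ECFP. They were ESC (embryonic stem cells), EpiLC (epiblast-like cells) and the stages d2PGCLC and d4c7PGCLC of cells resembling primordial germ cells, the latter sorted for the Blimp1 reporter. These gave 8 STAG1 and 10 STAG2 lists.

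Of the STAG3-alone gene-end sites, 2040 (27.7%) were called in all 3 STAG3 lists and 5082 in lists 2 and 3 alone. List 1 was shorter, with 12832 peaks against 38631 and 39681. Without list 2 the rule found 2217 sites and without list 3 it found 2176, so the number of sites rests on those longer lists. "Alone" means that no second list of STAG1 or STAG2 agreed. At 4924 sites there was no GSC STAG1 or STAG2 peak at all, 2321 had a STAG2 peak in 1 of the 3 GSC lists, and 97 held STAG2 peaks of 2 lists that did not overlap each other. At the edge of the rule, a site 2498 bp from the 3′ end of Dot1l and another 2497 bp from the start of Dmkn were in, and sites 2502 bp from Ttc34 and from Rnf32 were out.

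The strongest of these sites lay at genes of unrelated function, most of them at starts. Sites called in all 3 lists were ranked by the lowest of their 3 percentiles of fold enrichment within a list. Fold enrichment is the authors' linear ratio of signal over background at a peak. First in that ranking was a 1573 bp site (chr4:116597072-116598644, build GRCm38) by the ends of Ccdc17 and of Nasp, a histone chaperone, with fold enrichments of 16.0, 23.6 and 20.1 in STAG3 lists 1, 2 and 3. The site at the start of Gnb2 (chr5:137532806-137533845), a G protein beta subunit, had 16.3, 15.8 and 17.6. The site at the start of Dnajb12 (chr10:59879239-59880138), which encodes a co-chaperone of the endoplasmic reticulum membrane, had 20.1, 13.1 and 17.4, at percentiles 99.8, 95.5 and 98.5 of the lists.

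The gene Vstm2l had 2 of the 12 strongest sites, with fold enrichments of 13.7, 13.7 and 14.5 and of 16.6, 13.04 and 13.5. The site at the start of Acads (chr5:115118803-115119895), a mitochondrial acyl-CoA dehydrogenase, had 11.5, 17.2 and 17.99. A 1995 bp site near Fbxl22, Herc1 and Usp3 had 11.2, 30.4 and 23.3, and so differed most between the lists. Sites covering the starts of Cfap298, a protein of motile cilia, and of Chrnb2, a nicotinic acetylcholine receptor subunit, had 10.5, 12.4 and 12.9 and 10.2, 16.2 and 16.8. The site of Lpin1, a phosphatidate phosphatase, and Ntsr2 had 10.5, 11.9 and 18.2. A 1425 bp site at the start of B3gnt4, a glycosyltransferase, and the 3′ end of Lrrc43 had 10.2, 11.9 and 17.6. The site next to the 3′ end of Map1b, a microtubule-associated protein, was the only one of the 12 known to be nearest a 3′ end alone, with 10.5, 10.98 and 14.1. Outside GSC, STAG2 was called in 7 of 10 lists at the site of Ccdc17, in 5 at Gnb2, in 7 at Acads and in 8 at Cfap298. It was called in 7 and 8 at the Vstm2l sites, in 7 at Fbxl22, Lpin1 and Lrrc43, and in 6 at Chrnb2. Map1b had 2 and Dnajb12 had 0, so a strong site in GSC could lack STAG2 elsewhere. Among all STAG3-alone gene-end sites, stronger ones had STAG2 in ESC more often. The highest 25% by fold enrichment in STAG3 list 3 (n = 1688) had 43.4% and 49.9%. The lowest 25% (n = 1942) had 33.0% and 35.7%.

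The 250 bases before the start of these genes are shown because the sites cover them or lie next to them. They are RefSeq sequences of GRCm38.p6, written 5′ to 3′ on the strand of the gene, and the last base adjoins the start. Capitals mark matches to the searched motifs on either strand: GGGCGG (the GC box bound by Sp1 family factors), CCGGAA (an ETS family core), CCAAT and TATAAA. The promoter of Dnajb12 (chr10:59879333-59879582, plus strand) holds 23 CpG dinucleotides and 2 GC boxes. The promoter of Gnb2 (chr5:137533307-137533556, minus strand) holds 12 CpG and none of the motifs. The promoter of Acads (chr5:115119347-115119596, minus strand) holds 1 GC box. The promoter of Cfap298 (chr16:90934850-90935099, minus strand) holds 1 ETS core, and that of Chrnb2 (chr3:89764633-89764882, minus strand) none of the motifs. The promoter of B3gnt4 (chr5:123508232-123508481, plus strand) holds 5 GC boxes. The promoter of the histone gene H2ac1 (chr13:23934187-23934436, plus strand), chosen after its values were seen, is shown for contrast: it holds 4 CCAAT and 2 TATAAA matches and 6 CpG.

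Dnajb12: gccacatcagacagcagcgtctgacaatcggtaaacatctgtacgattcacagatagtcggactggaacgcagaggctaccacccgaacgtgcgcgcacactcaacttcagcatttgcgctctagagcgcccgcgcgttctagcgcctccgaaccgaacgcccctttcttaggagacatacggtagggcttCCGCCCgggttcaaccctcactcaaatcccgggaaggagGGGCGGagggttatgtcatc
Gnb2: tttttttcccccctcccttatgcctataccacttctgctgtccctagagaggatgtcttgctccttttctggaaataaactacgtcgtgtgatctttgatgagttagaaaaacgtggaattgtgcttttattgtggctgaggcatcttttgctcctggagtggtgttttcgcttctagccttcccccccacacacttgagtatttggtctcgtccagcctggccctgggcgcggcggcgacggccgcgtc
Acads: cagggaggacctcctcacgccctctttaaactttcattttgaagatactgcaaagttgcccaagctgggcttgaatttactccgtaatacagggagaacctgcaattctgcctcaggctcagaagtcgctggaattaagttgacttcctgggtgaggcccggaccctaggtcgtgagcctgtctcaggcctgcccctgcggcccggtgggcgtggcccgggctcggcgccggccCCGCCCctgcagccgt
Cfap298: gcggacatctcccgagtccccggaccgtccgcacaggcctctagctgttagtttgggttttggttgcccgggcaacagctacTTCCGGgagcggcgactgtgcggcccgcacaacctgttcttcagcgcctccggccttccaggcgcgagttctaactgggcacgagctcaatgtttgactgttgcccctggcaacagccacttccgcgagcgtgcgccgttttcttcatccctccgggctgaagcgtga
Chrnb2: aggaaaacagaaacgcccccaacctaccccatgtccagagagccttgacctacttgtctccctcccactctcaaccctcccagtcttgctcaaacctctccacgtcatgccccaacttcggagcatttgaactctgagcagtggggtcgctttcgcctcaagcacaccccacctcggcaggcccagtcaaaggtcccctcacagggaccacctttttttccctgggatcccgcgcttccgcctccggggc
B3gnt4: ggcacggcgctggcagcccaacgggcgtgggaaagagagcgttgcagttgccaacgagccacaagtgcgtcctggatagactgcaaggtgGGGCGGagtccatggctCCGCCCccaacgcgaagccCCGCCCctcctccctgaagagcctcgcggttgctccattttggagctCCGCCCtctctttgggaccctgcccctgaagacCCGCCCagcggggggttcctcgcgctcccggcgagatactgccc
H2ac1: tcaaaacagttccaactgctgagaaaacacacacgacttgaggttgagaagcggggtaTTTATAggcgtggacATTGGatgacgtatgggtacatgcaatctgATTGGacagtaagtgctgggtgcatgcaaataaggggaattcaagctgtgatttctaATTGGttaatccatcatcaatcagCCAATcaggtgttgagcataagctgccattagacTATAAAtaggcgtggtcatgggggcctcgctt

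Near gene ends meant near gene starts. Strand and start were known for 17492 of 21887 protein-coding genes. The start was taken as the outer 5′ boundary of the gene record. Of the STAG3-alone gene-end sites, 5290 were nearest a start and 525 nearest a 3′ end, so that 91.0% (95% Wilson interval 90.2 to 91.7, n = 5815) of sites of known kind lay at starts. The remaining sites were 68 ties and 1476 whose nearest gene had no known strand. At STAG2-STAG3 sites chosen in the same way (1926 GSC STAG3 sites that overlap a STAG2 site and no STAG1 site, off CTCF and near gene ends) starts made up 94.5% (93.3 to 95.5). At STAG3 sites shared with STAG1 and STAG2 in the same window they made up 61.6% (58.7 to 64.5), an interval that overlaps neither of the others. These intervals cover counting error only and treat sites as independent.

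The sites sat on the gene side of the start, meaning the outer 5′ boundary of the gene. The 17492 genes had 21263 promoters, so some have further starts, and positions relative to those were not measured. Of those nearest a start, 3982 (75.3%) had their midpoint within 500 bp of it, and 75.7% (74.5 to 76.8) had it at or downstream of the start. STAG2-STAG3 sites leaned nearly as far, with 72.2% (69.9 to 74.4), while the shared sites had 52.5% (48.7 to 56.3) downstream. The bin of 0 to 250 bp into the gene alone held 39.0% of the sites, against 17.2% in the 250 bp upstream. In all, 3420 sites (46.5%) covered a gene start and 124 covered a 3′ end. Starts on opposite strands within the window occurred at 9.62% (8.97 to 10.3) of STAG3-alone sites and at 5.66% (4.71 to 6.78) of STAG2-STAG3 sites. Here too the intervals cover counting error only and treat sites as independent. The orientation of the pairs was not examined.

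**Figure D1:**
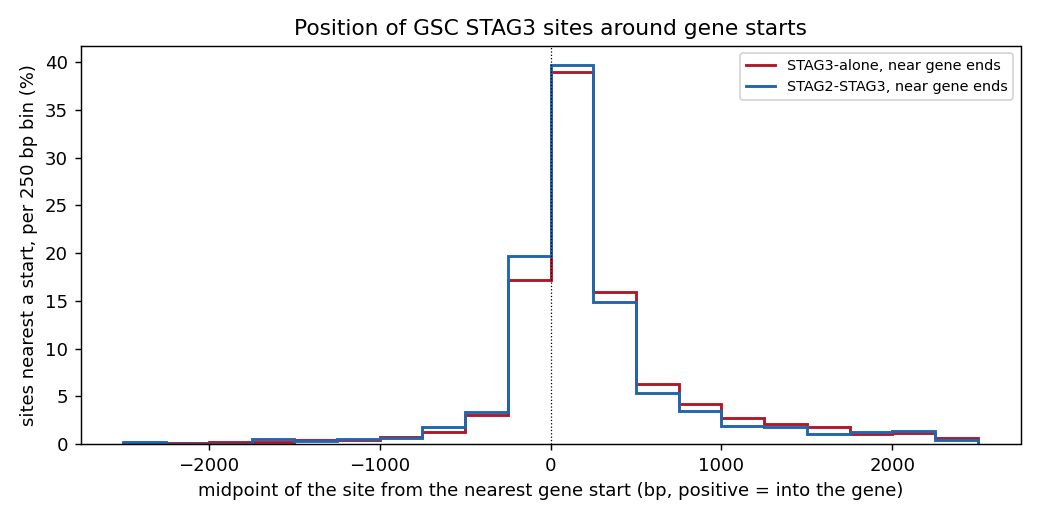
Midpoints of GSC STAG3 sites relative to the nearest gene start, in bins of 250 bp with positive values into the gene; the y axis is the percentage of the sites nearest a start. Red is STAG3-alone (n = 5290) and blue STAG2-STAG3 (n = 1461); both peak in the first bin into the gene, at 39.0% for STAG3-alone sites.

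The sites were of middling strength and width. Their median width was 597 bp, against 431 bp for the 3652 STAG3-alone sites far from gene ends and off CTCF, 714.5 bp for STAG2-STAG3 sites and 472 bp for sites shared with STAG1 and STAG2. Their median percentile of fold enrichment was 40.8, 54.7 and 53.9 in STAG3 lists 1, 2 and 3, while the shared sites, all of them within 5000 bp of a CTCF peak, stood at 75.8, 86.5 and 87.3. STAG2-STAG3 sites had 40.8, 65.5 and 66.0, and the far sites 31.5, 45.5 and 46.4. The median distance of STAG3-alone gene-end sites to the nearest CTCF peak was 7448 bp, and 39.3% of them had a CTCF peak within 5000 bp. The weakest sites called in all 3 lists lay by Ccdc28b, Arsb and Gm10406. The one at Arsb, a lysosomal sulfatase, had fold enrichments of 2.69, 3.31 and 4.93.

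The promoters at STAG3-alone sites were CpG-rich, as were those at other STAG3 sites. A promoter was the RefSeq window of 250 bases before to 50 after a gene start, here any RefSeq start, of which a gene can have several. The ratio of observed to expected CpG measures how far CpG has been kept. The median ratio was 0.802 in 5073 promoters overlapped by a STAG3-alone gene-end site, 0.567 in all 21263 promoters, 0.844 at STAG2-STAG3 sites, 0.766 at sites shared with STAG1 and STAG2, and 0.268 in promoters without any STAG3 site. Of promoters with a ratio under 0.2, 0.532% (0.361 to 0.785, 25 of 4695) were overlapped by a STAG3-alone site. The share was 24.3% (22.8 to 26.0) between 0.4 and 0.6 and 43.0% (41.6 to 44.5, 1831 of 4254) between 0.8 and 1. It did not rise further above a ratio of 1, at 42.1% (39.8 to 44.4), while the share with a STAG2-STAG3 site went from 14.01% to 17.2% over the same bins.

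**Figure D2:**
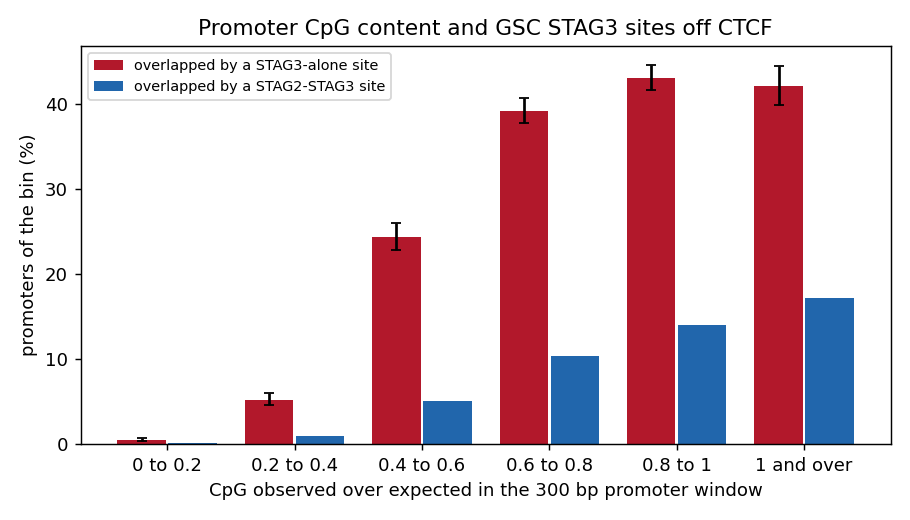
Percentage of promoters overlapped by a STAG3-alone gene-end site (red, with 95% Wilson intervals) or a STAG2-STAG3 site off CTCF (blue) by bins of observed over expected CpG. Red bars climb from 0.532% in the lowest bin to 43.0% between 0.8 and 1.

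Some short motifs were more frequent in these promoters. GGGCGG was in 71.6% of promoters overlapped by a STAG3-alone site and in 46.2% of all promoters. It was in 78.2% of promoters with a STAG2-STAG3 site and in 65.3% of those with a site shared with STAG1 and STAG2. CCGGAA was in 31.5% against 18.7% of all, and in 26.2% of promoters with a STAG2-STAG3 site. TATAAA was in 5.50% against 12.6% of all, and in 5.12% and 5.59% of promoters with a STAG2-STAG3 or a shared site. CCAAT did not separate promoters with a STAG3-alone site from all promoters, with 37.9% against 38.2%. GGGCGG and CCGGAA each hold a CG, and their part in the difference was not separated from that of CpG content. The searched core of the CTCF motif was in 0 of 5073 such promoters and in 2 of all 21263, too few to compare.

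Outside GSC, many of these places carried STAG2. The other cell types played no part in choosing the sites, so this could be tested over lists. In ESC a STAG2 peak was called at 37.5% and 42.9% of the STAG3-alone gene-end sites in lists 1 and 2, beside 63.1% and 65.2% of all GSC STAG3 sites. In EpiLC the shares were 41.0% and 39.3%, beside 66.2% and 65.3%. In d2PGCLC they were 62.4%, 19.6% and 33.5%, beside 71.5%, 48.6% and 58.7%. In d4c7PGCLC they were 40.5%, 17.5% and 18.2%, beside 62.4%, 47.4% and 48.7%. In each of the 10 lists the sites were called less often than STAG3 sites at large, which include those at CTCF. List 1 of either PGCLC stage was far above the others of its stage, and it was also the longest, with 73250 peaks in d2PGCLC and 53988 in d4c7PGCLC.

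STAG1 was seldom called at the same places. The shares were 5.20% and 1.35% in ESC, beside 43.4% and 37.1% of all GSC STAG3 sites. They were 0.0544% and 0.679% in EpiLC, beside 25.3% and 32.4%. They were 1.18% and 3.23% in d2PGCLC, beside 30.6% and 35.4%, and 4.36% and 3.70% in d4c7PGCLC, beside 44.1% and 44.3%. Of all GSC STAG3 sites, 48.4% had a CTCF peak. The rule left out sites with a CTCF peak or a GSC STAG1 site. Other STAG3 sites off CTCF were also low in STAG1. In ESC, STAG3-alone sites far from gene ends had 3.67% and 0.767%, and STAG2-STAG3 sites had 9.87% and 1.82%. STAG2 was above STAG1 in every list of all 4 cell types.

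The mean difference between STAG2 and STAG1 was 33.6 percentage points over the 4 cell types (two-sided exact permutation test within cell types, p = 0.000833, Benjamini-Hochberg adjusted over 7 tests p = 0.00456). STAG2 lists were longer, with 35799 to 84904 peaks against 14720 to 42013 for STAG1. When every list was cut to its 14720 highest peaks by fold enrichment, the difference fell to 0.289 points (exact permutation test, adjusted p = 0.00972, with 0.00324 to 0.00972 over its alternatives). At that length STAG2 was called at 0.217% to 0.965% of the sites, so few of them were among the strongest STAG2 peaks of another cell type. The d4c7PGCLC lists allow a comparison at like length: STAG2 lists 2 and 3, with 35799 and 37236 peaks, had 17.5% and 18.2%, and the 2 STAG1 lists, with 38491 and 42013 peaks, had 4.36% and 3.70%. With the lists of each cell type cut to the shortest of them, a choice made after seeing the data, the mean difference was 3.77 points (exact permutation test, adjusted p = 0.00389). The gap was widest in d4c7PGCLC, where at 35799 peaks the 3 STAG2 lists had 12.5%, 17.5% and 15.5% and the STAG1 lists 2.38% and 1.63%. In ESC, at 29222 peaks, STAG2 had 1.74% and 2.27% and STAG1 1.05% and 1.35%. In EpiLC, at 14720 peaks, STAG2 had 0.557% and 0.652% and STAG1 0.0544% and 0.109%. In d2PGCLC, at 21438 peaks, STAG2 had 2.20%, 1.67% and 1.13% and STAG1 1.18% and 1.01%, so the proteins overlapped there and in no other cell type. An overlap of 50% of the site gave 18.9 points. That limit also applied to the STAG1, STAG2 and CTCF overlaps in the rule, so the sites changed, to 9014.

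**Figure D3:**
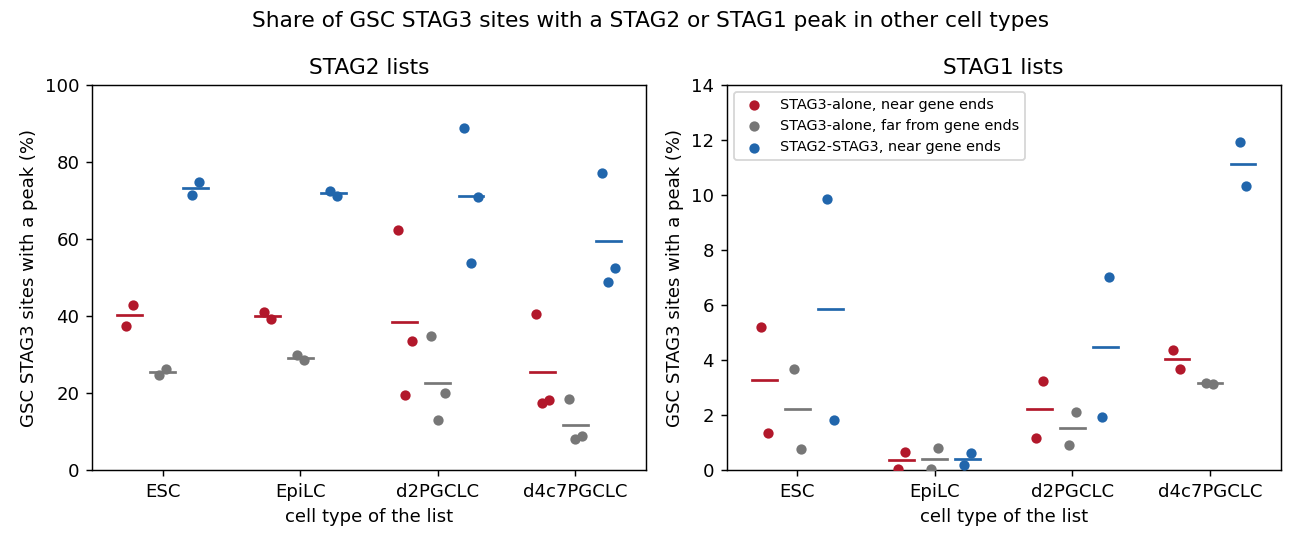
Percentage of GSC STAG3 sites with a STAG2 peak (left) or STAG1 peak (right, shorter axis) in each list of 4 other cell types; points are lists and lines their means. STAG3-alone gene-end sites (red) lie above far sites (grey) and below STAG2-STAG3 sites (blue) in all 10 STAG2 lists.

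STAG2 was called elsewhere more often at STAG3-alone sites near gene ends than at those far from them. The sites exceeded STAG3-alone sites far from gene ends in 10 of 10 STAG2 lists, by 13.95 points on average (two-sided exact sign-flip permutation test, p = 0.00195, the smallest it can give, adjusted p = 0.00456). In ESC the far sites had 24.8% and 26.3%, and in EpiLC 29.8% and 28.6%. With sites cut to 400 bp around the midpoint, also chosen after seeing the data, the difference was 12.5 points. Among sites without a STAG1 or STAG2 peak in any GSC list it was 11.2 points. It was 5.10 points with an overlap of 50% of the site, a setting that also changed which sites were chosen. It was 2.38 with lists cut to the shortest of their cell type. At the equal length of 14720 peaks it was -0.0256 points (exact permutation test, adjusted p = 0.289), so the difference was not seen among the strongest STAG2 peaks. For STAG1 it was 0.639 points, in 6 of 8 lists (exact permutation test, adjusted p = 0.0438). That direction turned at equal list length, to -0.0512 points, past the threshold the other way (exact permutation test, adjusted p = 0.0137). With an overlap of 50% of the site, on that changed choice of sites, it was -0.158 points (exact permutation test, adjusted p = 0.153). In the same exact permutation test the call was lost, at adjusted p = 0.0875, without either list of ESC, d2PGCLC or d4c7PGCLC (0.510 to 0.694 points), and at adjusted p = 0.0656 without GSC STAG3 list 2 (0.903) or list 3 (0.839).

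STAG2 was called far more often at STAG2-STAG3 sites than at STAG3-alone gene-end sites. The sets were split by their STAG2 calls in GSC. A difference in this direction could thus come from how they were chosen, and the part of that choice was not tested. The difference was -33.0 points on average over the STAG2 lists, with the STAG3-alone sites lower in 10 of 10 (exact sign-flip permutation test, p = 0.00195, adjusted p = 0.00456). STAG2-STAG3 sites had a STAG2 peak in 71.5% and 74.9% in ESC and in 48.8% to 77.2% in d4c7PGCLC. At equal list length the difference shrank to -2.87 points, and with lists cut within cell types to -12.3, with the call kept in both. For STAG1 it was -2.99 points, lower in 7 of 8 lists (exact permutation test, adjusted p = 0.0273), and -0.190 at equal list length. Again by the exact permutation test, the call was lost at adjusted p = 0.0547 without either list of ESC, d2PGCLC or d4c7PGCLC (-3.36 to -2.34 points).

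Between cell types, no difference in these shares passed the test. Cell type means of STAG2 ranged over 14.8 points, from 25.4% ± 13.1 (SD, n = 3) in d4c7PGCLC to 40.2% ± 3.81 (SD, n = 2) in ESC, and the exact permutation test gave an adjusted p = 0.583. Means of STAG1 ranged over 3.66 points, from 0.367% in EpiLC to 4.03% in d4c7PGCLC (exact permutation test, adjusted p = 0.278).

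Over the 10 STAG2 lists, recurrence was spread rather than sharp. A STAG2 peak was called in at least 1 list at 5858 sites (79.6%, 78.7 to 80.5), beside 82.6% of all GSC STAG3 sites, and in all 10 lists at 265 (3.60%). The counts fell steadily from 951 sites in 1 list to 265 in 10. STAG2-STAG3 sites went the other way, from 54 in 1 list to 462 (24.0%) in all 10. STAG3-alone sites far from gene ends had no STAG2 peak in any list in 49.2% of cases, against 20.4% of the gene-end sites. A STAG1 peak in at least 1 of 8 lists was called at 792 sites (10.8%, 10.1 to 11.5), beside 50.3% of all GSC STAG3 sites. It was called at 8.21% of the far sites and at 23.6% of STAG2-STAG3 sites. No peak of STAG1 or STAG2 in any list of any cell type, GSC included, was found at 1302 sites (17.7%, 16.8 to 18.6). When a STAG2 site needed 2 lists of a cell type, 3417 of the sites (46.4%) had none in any of the 4 cell types and 659 (8.96%) had 1 in all 4.

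**Figure D4:**
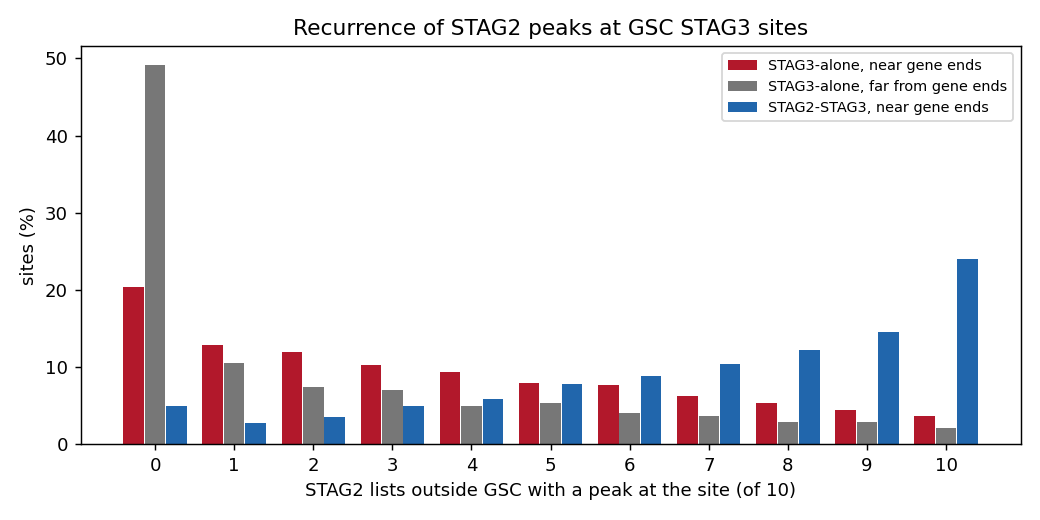
Percentage of sites (y axis) by the number of STAG2 lists outside GSC, of 10, with a peak at the site (x axis). STAG3-alone gene-end sites (red) fall from 20.4% with no list to 3.60% with all 10, far sites (grey) start at 49.2%, and STAG2-STAG3 sites (blue) rise to 24.0%.

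Gene-end sites differed by which end they were near. STAG2 was called at 38.8% and 44.5% of the sites nearest a start in the ESC lists, and at 21.9% and 23.05% of those nearest a 3′ end. In EpiLC the ranges were 39.6% to 41.0% and 30.5% to 31.0%. In d4c7PGCLC they were 18.8% to 43.4% and 5.33% to 12.4%, and in d2PGCLC, where lists differ most, 20.3% to 65.6% and 8.57% to 33.1%. The ranges overlap in d2PGCLC alone. Sites with a peak in 1 GSC STAG2 list had STAG2 in ESC at 51.8% and 57.9%, and those with none at 30.2% and 35.2%. Sites called in all 3 STAG3 lists had 43.6% and 50.4% in ESC, and those called in 2 had 35.2% and 40.0%.

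The sites at either extreme were not of 1 strength. The site at the start of Dner, a transmembrane protein of neurons, had a peak in all 10 STAG2 and all 8 STAG1 lists outside GSC, although its STAG3 fold enrichment in GSC was 6.86 and 7.24 in lists 2 and 3. Sites by Pla2r1, a phospholipase receptor, Chrm4, a muscarinic receptor, Dlgap4, a postsynaptic scaffold protein, Phlda1 and Fam43a had all 10 STAG2 and 7 STAG1 lists. Those of Dner, Chrm4 and Dlgap4 lay 503, 1 and 13 bp from a GSC CTCF peak, next to CTCF without overlapping it. At the other extreme, Dnajb12 had no STAG1 or STAG2 peak in any list, GSC included. The next strongest without any were at the start of Lrrc73 (9.59, 12.1 and 11.7), at Csf2ra, a cytokine receptor subunit (8.63, 16.2 and 14.5), and at Psmb4, a proteasome core subunit (8.31, 10.98 and 8.80).

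Genes were then counted. A STAG3-alone site lay within 2500 bp of an end of 7651 of 21887 protein-coding genes (35.0%), and within 2500 bp of the start of 5576 of 17492 genes of known strand (31.9%). At 1427 genes there were 2 or more such sites, and at most 5. The lists of genes below are read against 35.0% as a description, since the GSC calls chose the sites. That background includes genes with CpG-poor promoters, which seldom carried a site (0.532% of promoters with a ratio under 0.2). The part of promoter CpG content in the shares of the lists was not tested. Genes that share a promoter are counted through the same site.

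Genes of replication-dependent histones, which package newly made DNA and are transcribed in S phase, had the highest share of the 29 lists. A STAG3-alone site lay at 53 of 63 (84.1%), through 38 distinct sites, because these short genes sit in clusters. In the cluster on chromosome 3, 9 of 10 genes had a site and 0 of those 9 had a STAG2 peak outside GSC. In the genes on chromosome 13, 44 of 53 had a site, and 32 of those 44 had STAG2 elsewhere. The site of H2ac18 and H3c14 on chromosome 3 was 2341 bp wide, with STAG3 fold enrichments of 6.07, 6.86 and 7.82. The site of the pair H2ac1 and H2bc1 on chromosome 13 had 7.67, 5.72 and 7.82 and STAG2 in 1 EpiLC list.

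Genes of housekeeping machines had sites more often than all genes. Mitochondrial ribosomal protein genes had a site at 52 of 77 (67.5%) and cytoplasmic ones at 57 of 85 (67.1%), among them Rps26, Rps7 and Rps23. The site at Rps26 had fold enrichments of 7.67, 7.32 and 7.82 and no STAG2 peak outside GSC. Chaperones had a site at 50 of 81 (61.7%), oxidative phosphorylation at 53 of 91 (58.2%), translation initiation factors at 32 of 56 (57.1%), tRNA synthetases at 20 of 35 (57.1%) and the proteasome at 28 of 49 (57.1%). The site at Eif3m, a translation initiation factor subunit, had 7.67, 13.04 and 10.2. Splicing factors (41 of 78, 52.6%), DNA replication factors (24 of 46, 52.2%) and RNA polymerase II with its general factors (43 of 83, 51.8%) were nearer to the 35.0% of all genes. Condensin and SMC5/6 subunits had a site at 10 of 15 (66.7%), imprinted genes at 15 of 29 (51.7%), chromatin regulators at 18 of 40 (45.0%) and zinc finger genes of the Zfp family at 163 of 394 (41.4%). The replication licensing factor Cdc6 had a site with 7.03, 9.84 and 7.35.

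Lists of developmental regulators were mixed. Neural regulators had a site at 9 of 12 genes (75%), including the proneural factor Neurog1 and Olig2, and Hox genes at 21 of 39 (53.8%). At starts of genes of known strand, neural regulators had 8 of 10 (80%). Hox genes had 8 of 22 there (36.4%), near the 31.9% of all genes. Formative and mesendoderm genes had 12 of 22 (54.5%), including Mixl1 and Dnmt3b, a de novo DNA methyltransferase. Early germ cell genes had 8 of 14 (57.1%), including Prdm1, the repressor that specifies germ cells, whose stronger site of 2 had STAG2 in all 10 lists outside GSC. Pluripotency genes had 7 of 26 (26.9%). With starts alone counted the share was 31.2%, beside 31.9% of all genes. Spermatogonial genes, those of the cell type itself, had 11 of 29 (37.9%), near the background, with Dmrt1, Ccnd2, Sall4 and Foxo1 among them.

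Some large clustered families had few sites. Olfactory receptors had a site at 4 of 1110 (0.360%), keratins and keratin-associated proteins at 4 of 104 (3.85%) and clustered protocadherins at 3 of 57 (5.26%). Of the markers of cells that a GSC culture could hold, those of fibroblast feeders had a site at 0 of 12 and those of Sertoli cells at 6 of 10, Dmrt1 being on both the Sertoli and the spermatogonial list. Peak lists measure no expression, so these counts do not tell which cells were present.

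**Figure D5:**
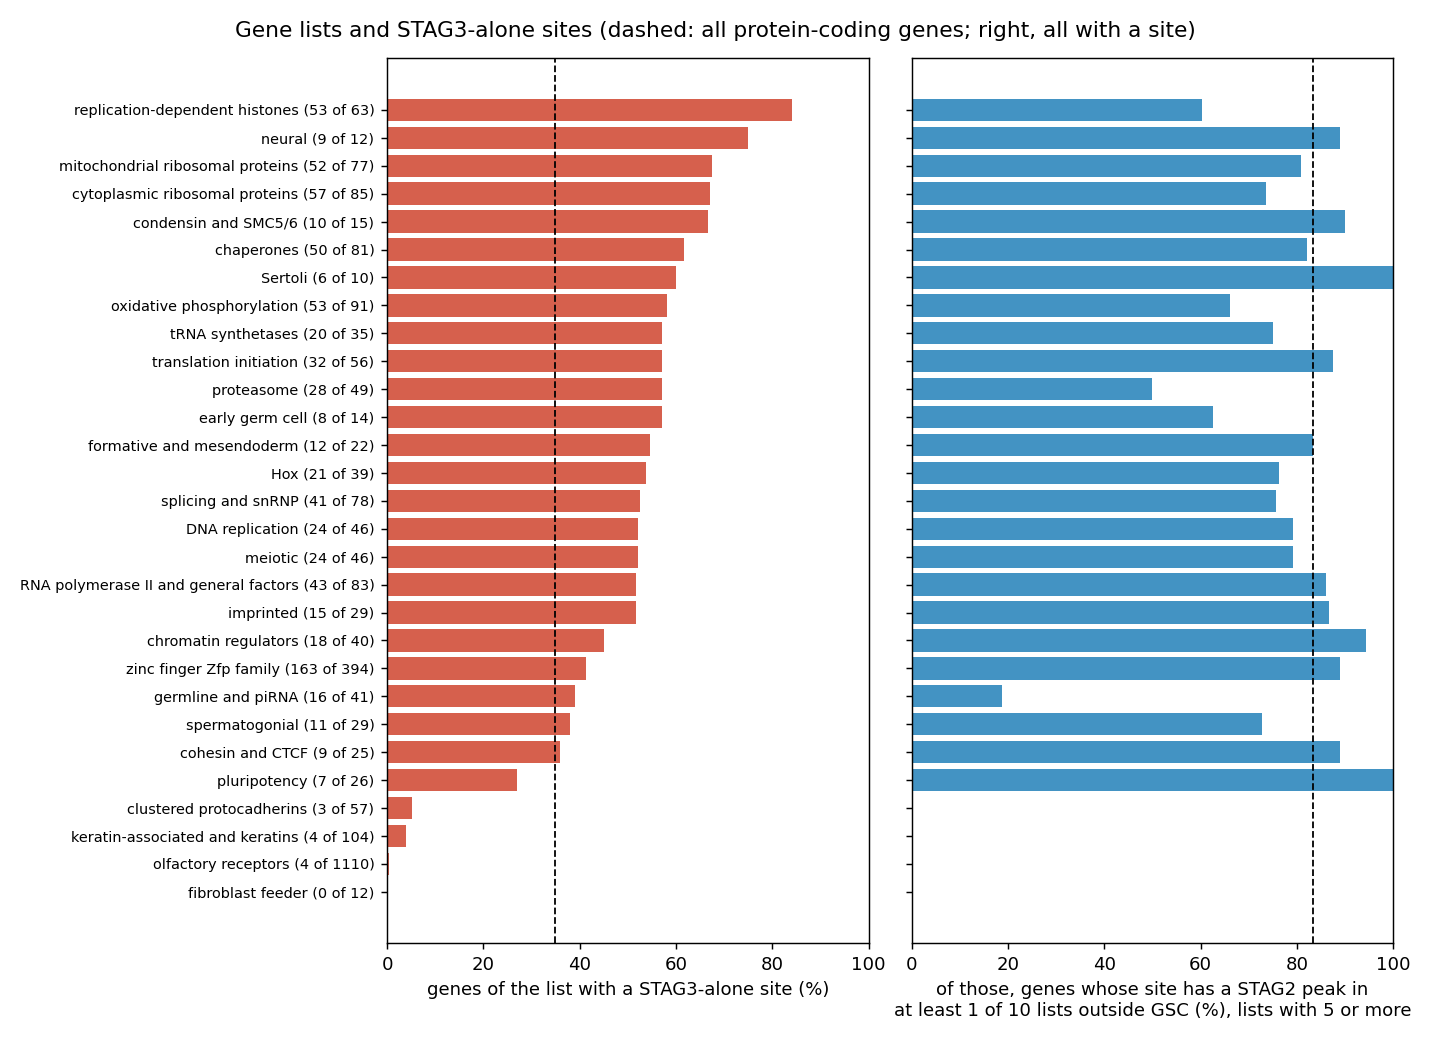
Left, percentage of the genes of each list with a STAG3-alone site within 2500 bp of an end, with the counts beside the name and 35.0% of all genes as the dashed line. Right, percentage of those genes whose site had a STAG2 peak in at least 1 of 10 lists outside GSC, for lists with 5 or more such genes, and 83.3% of all genes with a site as the dashed line; the germline and piRNA list is lowest at 18.8%.

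In the germline and piRNA list few of the genes with a site had STAG2 there in other cell types. The piRNA pathway silences transposons in germ cells, and many of its genes are silent in other tissues. A STAG3-alone site lay at 16 of 41 genes (39.0%), close to the background of 35.0%. A STAG2 peak outside GSC was called at the sites of 3 of those 16 (18.8%), whereas it was called at 83.3% of all genes with a site. The 3 were Tdrd5 (7 of 10 lists), Tdrd1 (4) and Henmt1 (2), a Tudor protein pair and the piRNA methyltransferase. The 13 without were Mael, Slc25a31, Sohlh2, Hormad1, Fkbp6, Tuba3a, Tex101, Rnf17, Gtsf1, Pnldc1, Tdrd6, Dnd1 and Taf7l, named here after their values were seen. The site at Tdrd6, a chromatoid body protein, had fold enrichments of 5.43, 6.18 and 7.63. No site of the list had a STAG1 peak outside GSC.

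In the meiotic list a site lay at 24 of 46 genes (52.2%), and 19 of those 24 (79.2%) had STAG2 elsewhere, near the 83.3% of all genes with a site. They included Sycp1 (1 list), a synaptonemal complex protein, and Rad21l (2 lists), the meiotic cohesin kleisin. Among the 5 without were Hormad1, Iho1, Sycp3 and Hormad2, whose products are parts of the meiotic chromosome axis. Proteasome genes were lower, with 14 of 28 (50.0%), and histone genes had 32 of 53 (60.4%). Genes of cohesin and its regulators had a site at 9 of 25 (36.0%), among them Rad21l, Smc1b and Smc3 of the ring, Mau2 of the loader, Wapl and Espl1 that release or cut it, Cdca5 that protects it, and Chtf18. All but Mau2 of these 9 had STAG2 in some list elsewhere, 8 of 10 lists at Wapl.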

How the data were processed

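Peak lists of 30 ChIP-seq groups or libraries, of 92 samples, were used. Samples without a list were not analysed here. The submitters' processing notes name, in no order, MACS2 for peaks, deepTools 3.5.0, bedtools 2.29.2, SAMtools 1.7, the aligner Bowtie2 2.3.4.1, and Trim Galore 0.4.1 with cutadapt 1.9.1 for trimming. The builds named there are GRCm38.p3 and mm10. Options, controls and MACS2's version are not stated there. The deposited narrowPeak lists give fold enrichment (a ratio), −log10 p and −log10 q, and a score per peak. They are the authors' values, used only to rank, filter or describe peaks within a list. The 26 STAG lists were called per library and the 4 CTCF lists on pooled replicates, per the peak names. Peak names of STAG3 lists point to another working directory than those of STAG1 and STAG2, so calling run and antibody cannot be told apart.

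The sequencing depth behind a list is unknown, and a place without a peak is one where none was called. No label states that replicates were separate cultures. The p-values thus reflect the spread between lists, which may be purely technical. GSC and the other cell types differ in line, so cell type and line cannot be told apart.

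Intervals sharing at least 1 bp overlapped. Genes, starts and sequences came from RefSeq tables of GRCm38.p6, matched by symbol. Strand was known for 17492 of 21887 genes and for none on chromosome 18. Shares of sites with a peak were tested over lists with exact permutation tests and Benjamini-Hochberg adjustment over 7 tests, at a threshold of 0.05. Share intervals are 95% Wilson intervals. The scripts were tested on simulated data. The members, the 29 gene lists and the motifs were chosen with earlier results of these data known. Named genes were, by rule, the 12 highest and 3 lowest sites called in all 3 STAG3 lists by their lowest percentile, up to 4 genes per list by that percentile, the 6 sites in the most lists outside GSC and 4 in none, and 2 sites on each side of the 2500 bp limit. Python 3.11.15, NumPy 2.4.6, SciPy 1.17.1 and matplotlib 3.10.9 were used. Alternatives were other windows, a stricter q, a larger overlap, other list minimums, CTCF in all 4 genotypes, equal list lengths, fixed site width, the replicate block and each list left out.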

Additional observations from a re-analysis of the deposited data

How the results depend on the processing

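List length, the overlap required and the number of lists required each limited these results. The overlap of 50% applied to the rule as well as to the peaks, and the rule then gave 9014 sites. Requiring all 3 STAG3 lists left 2040 sites at 2526 genes, and leaving out 1 GSC list in turn gave 2176 to 8844 sites and 2634 to 8957 genes. The share at starts was 94.4% with a window of 1000 bp, 88.3% with 5000 bp, 91.7% with −log10 q of at least 5 and 89.1% when any list made a STAG1 or STAG2 site, and 90.9% to 91.8% without 1 GSC list. The difference of 0.639 points from far sites in STAG1 lists lost its call with a window of 1000 bp (0.587, exact permutation test, adjusted p = 0.0656) and with all 3 STAG3 lists (0.758, adjusted p = 0.0875). It turned to -0.158 with an overlap of 50% of the site (call lost) and to -0.0512 at equal list length (past the threshold the other way), and was 0.510 to 1.05 without 1 list. In STAG2 lists it was -0.0256 at equal list length, where the call was lost, 2.38 with lists cut within cell types and 5.10 with an overlap of 50%, where it was kept, and 12.4 to 18.3 without 1 list. The difference from STAG2-STAG3 sites in STAG1 lists lost its call with −log10 q of at least 5 (-2.41) and when any list made a STAG1 or STAG2 site (-1.82), both at adjusted p = 0.0547 by the exact permutation test, and was -4.43 to -2.34 without 1 list. The difference between STAG2 and STAG1 kept its call in all 37 alternatives, from 0.289 points at equal list length to 38.3. With lists cut to the shortest of their own cell type, an alternative added after seeing the data, the cell type ranges of 14.6 points for STAG2 and 1.92 for STAG1 passed the threshold, but that cut itself differs between cell types.

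Same-numbered STAG1 and STAG2 lists of a cell type share only a number, and replicate 1 of both deviated the same way in 1 of 4 cell types. With the replicate block, the difference between STAG2 and STAG1 was 35.1 points, in 8 of 8 pairs (exact sign-flip permutation test, p = 0.00781).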

Other observations

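Chromosome X carried few of the sites. It holds 4.41% of the protein-coding genes and held 32 of the 7359 STAG3-alone gene-end sites (0.435%, 95% Wilson interval 0.308 to 0.613). That is 0.0331 sites per gene, against 0.286 on chromosome 7, the lowest autosome, and 0.429 on chromosome 8, the highest. All STAG3 sites near gene ends were as rare there, at 0.420%, and STAG3 sites shared with STAG1 and STAG2 at 0.863% (0.676 to 1.10). Taf7l, a testis form of a transcription factor subunit, was the X-linked gene of the germline and piRNA list with a site.

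Most of the rarer motifs also differed from their share of all promoters. The searched NRF1 motif was in 2.39% (2.00 to 2.84) of promoters with a STAG3-alone site, in 1.33% of all and in 0.466% (0.128 to 1.68) of those with a site shared with STAG1 and STAG2. Promoters with a STAG2-STAG3 site had it as often, at 2.39% (1.73 to 3.30). TGACGTCA, the cyclic AMP response element, was in 4.199% (3.68 to 4.79) against 2.23% of all. AAGATGGCG, a YY1 motif, was in 3.39% (2.93 to 3.92) against 1.83%, and the ZNF143 motif in 2.31% (1.93 to 2.76) against 1.29%. At STAG2-STAG3 sites TGACGTCA, AAGATGGCG and the ZNF143 motif were in 2.99%, 2.79% and 1.53% of promoters. CACGTG, the E-box, was in 11.7% against 7.84%, and TAACGG in 3.80% against 2.96%. Their shares at STAG2-STAG3 sites were 12.4% and 3.39%. TTTCGCGC and TTTGGCGC, forms of the E2F site, were in 1.03% (0.783 to 1.34) and 0.848% (0.630 to 1.14) against 0.451% and 0.635%. The interval of TTTGGCGC holds its share of all promoters. Promoters with a STAG2-STAG3 site had 0.598% and 0.731%. These are matches to letters in a window of 300 bases on either strand, and the part of CpG content in these differences was not tested.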
